A study of Mus musculus with 6 samples.

Results

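The kappa variable segments of the immunoglobulin light chain are described here in mouse colon with chemically induced colitis. They were taken as every row of the deposited count table with the biotype IG_V_gene and a name starting with Igkv, which gave 100 of 54532 rows. A further 60 Igkv rows carry a pseudogene biotype and were counted apart. Poly-A RNA of distal colon was sequenced in 6 libraries. The tested libraries, KO 1 to KO 3, are labelled Itgbl1 -/-, and the WT 1 to WT 3 libraries are labelled wild type. All 6 came from mice given 3% dextran sulfate sodium (DSS), which injures the gut lining, in drinking water and killed on day 7, so no library is from an uninjured colon. The labels give 1 batch date for all libraries. They do not give the age, strain or sex of the mice, how the Itgbl1 allele was made, or whether each library is a separate mouse. P-values therefore measure the spread between these libraries, which may be technical.

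A B cell builds its antibody light chain by joining a V segment to a J segment on the DNA, in the kappa or the lambda locus, next to a constant gene. The V segment supplies most of the antigen-binding surface of the light chain, including the first and the second hypervariable loops (CDR1 and CDR2) and the start of the CDR3. Gut plasma cells transcribe the joined gene at a very high level and mostly secrete IgA, so in a piece of colon the reads on each V segment follow which plasma cells are present and how much light chain RNA each makes. Within a clone, all cells carry the same joined segment.

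The 100 segments lie on chromosome 6 of GRCm38, at chr6:67555497-70704177, from Igkv2-137, the farthest, to Igkv3-1, the nearest to the J segments. The region spans 3148.7 kb, and 38 segments are on the plus strand and 62 on the minus strand. Their names place them in 20 families. Igkj1, the first J segment, starts at chr6:70722562, and the constant gene Igkc lies at chr6:70726435-70726966. The coordinates of all 100 rows are the same in the GENCODE M21 annotation.

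The segments that ranked first in at least 1 library, and the one with the smallest p between the labels, are printed from GENCODE M21 transcripts on GRCm38, in the sense of the transcript. Igkv3-2, Igkv1-117 and Igkv8-30 are cut to their last 300 coding bases, of V exons with 310, 313 and 316. The V exon of Igkv12-89, with 298 bases, is whole. Positions are those of the printed bases, and identities below use whole V exons. Capitals mark the CDR1 codons, between the first conserved cysteine codon and the tryptophan codon that follows, and the end of the segment from the second conserved cysteine codon, which opens the CDR3. Igkv3-2 (chr6:70698768-70699067, plus strand) has 15 CDR1 codons, Igkv1-117 (chr6:68121528-68121827, plus strand) has 16, Igkv8-30 (chr6:70117061-70117360, minus strand) has 17 and Igkv12-89 (chr6:68834846-68835143, minus strand) has 11.
Igkv3-2: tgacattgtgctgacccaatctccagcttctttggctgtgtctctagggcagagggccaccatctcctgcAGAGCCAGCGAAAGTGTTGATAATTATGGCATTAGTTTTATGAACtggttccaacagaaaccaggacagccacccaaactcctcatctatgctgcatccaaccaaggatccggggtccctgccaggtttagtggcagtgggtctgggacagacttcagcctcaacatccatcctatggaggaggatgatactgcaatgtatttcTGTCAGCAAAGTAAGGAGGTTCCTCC
Igkv1-117: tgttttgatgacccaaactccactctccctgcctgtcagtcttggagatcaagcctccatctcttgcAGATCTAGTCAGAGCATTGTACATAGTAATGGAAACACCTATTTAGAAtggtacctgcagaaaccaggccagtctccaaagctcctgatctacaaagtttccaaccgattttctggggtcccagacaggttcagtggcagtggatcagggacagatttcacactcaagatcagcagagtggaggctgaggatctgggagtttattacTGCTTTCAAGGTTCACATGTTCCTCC
Igkv8-30: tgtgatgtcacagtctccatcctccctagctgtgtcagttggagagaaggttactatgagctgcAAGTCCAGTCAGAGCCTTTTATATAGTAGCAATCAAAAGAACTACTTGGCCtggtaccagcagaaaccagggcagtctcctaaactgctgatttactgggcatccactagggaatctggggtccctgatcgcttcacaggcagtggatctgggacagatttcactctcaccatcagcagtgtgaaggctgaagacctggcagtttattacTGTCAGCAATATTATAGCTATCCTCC
Igkv12-89: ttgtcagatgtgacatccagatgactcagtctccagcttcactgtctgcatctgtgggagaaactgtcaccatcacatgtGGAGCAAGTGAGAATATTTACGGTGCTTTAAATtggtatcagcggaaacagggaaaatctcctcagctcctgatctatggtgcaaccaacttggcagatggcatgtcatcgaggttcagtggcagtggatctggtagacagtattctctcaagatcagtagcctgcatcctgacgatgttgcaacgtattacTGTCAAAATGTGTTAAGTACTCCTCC
These are germline sequences, and the reads of these libraries may carry somatic changes that a count per gene does not show. Between Igkv3-2 and the other printed segments, identity was 67.2% with Igkv1-117, 66.35% with Igkv8-30 and 63.58% with Igkv12-89. The closest of all members to Igkv3-2 was Igkv3-1, with 92.9% identity and 22 differences over 310 aligned bases. Igkv1-117 was closer to its own nearest neighbour, Igkv1-110, at 96.81%, and Igkv12-89 was at most 85.91% identical to any other member, Igkv12-46. In 7 pairs of members identity reached 97% or more, up to 98.99% for Igkv5-43 and Igkv5-45, and the counting rule for reads that fit both genes of such a pair is not given in the sources used here.

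Library totals over all genes were 13326970 to 17465473 counts in KO libraries and 16800399 to 18321389 in WT libraries. Itgbl1 itself had 12, 4 and 10 reads in KO 1, KO 2 and KO 3, against 19, 6 and 5 in WT 1, WT 2 and WT 3. The groups overlapped at these low counts, so Itgbl1 does not check the labels, and the directions given compare KO with WT as labels only. Single libraries stood apart. KO 1 had 4.03% of its counts on immunoglobulin genes, against 0.388% to 0.94% in the other 5 libraries. KO 3 had 12.8% of its counts on mitochondrial genes, against 3.53% to 4.88% in the others.

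The amount of Igkv RNA did not separate the labels, because 1 library labelled knockout was the highest of 6 and another the lowest. Summed Igkv reads were 49953, 9843 and 3348 in KO 1, KO 2 and KO 3, against 6661, 8393 and 12388 in WT 1, WT 2 and WT 3. In CPM, reads scaled to a common library total, that was 2468, 563 and 260.2 CPM in the KO libraries, against 395.9, 531.1 and 730.5 CPM in the WT libraries. KO 1 lay above every WT library, KO 3 below every one, and KO 2 among them. The means were 1097 ± 1200 CPM for KO and 552.5 ± 168 CPM for WT (SD, n = 3 each). The ratio of geometric means was 1.33, a log2 difference of 0.41. The exact permutation test over libraries, two-sided, gave p = 0.8, where 0.1 is the lowest value that 3 against 3 can give. Without KO 1 the log2 difference was -0.48. In bulk tissue, fewer plasma cells and less light chain RNA per cell cannot be told apart.

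**Figure D1:**
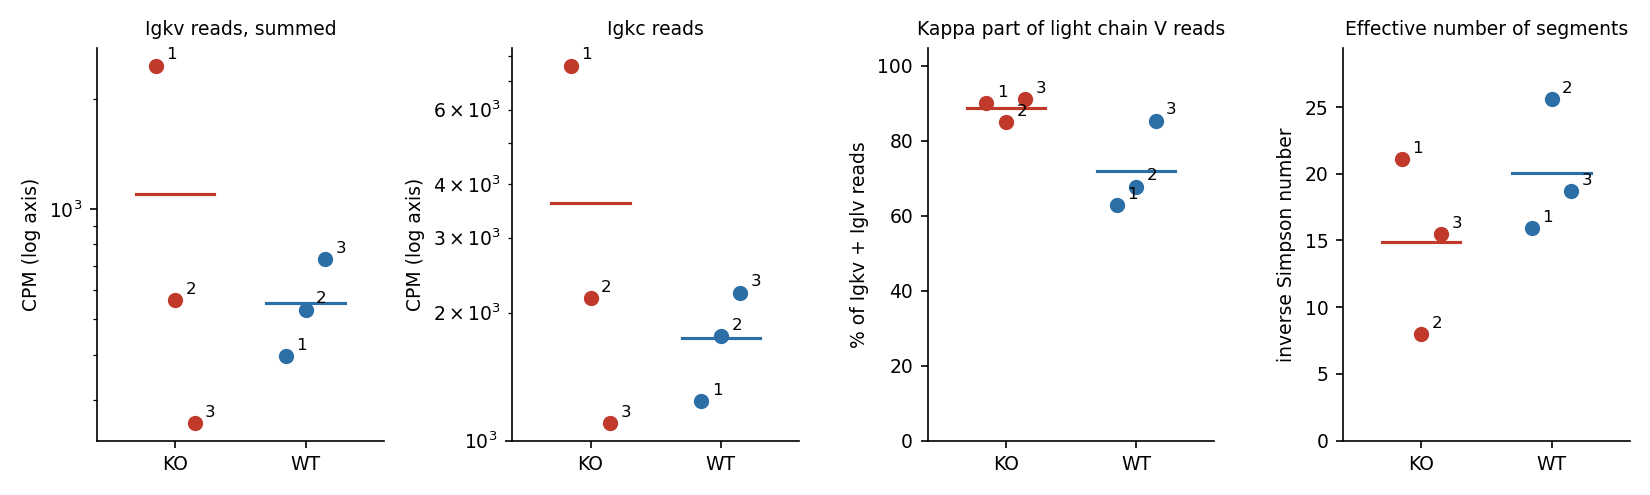
Summed Igkv CPM (log axis), Igkc CPM (log axis), the kappa percentage of light chain V reads and the effective number of Igkv segments in each library. Each point is a library with its replicate number, and the bar is the mean of the 3 KO libraries (left) or the 3 WT libraries (right). KO 1 is the highest and KO 3 the lowest library for both Igkv and Igkc, and the labels overlap in all 4 panels.

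Igkc, the constant part of every kappa chain, ranked the libraries in the same way at both ends. It had 7609, 2159 and 1101 CPM in KO 1, KO 2 and KO 3, against 1236, 1763 and 2226 CPM in WT 1, WT 2 and WT 3. There were 0.324, 0.261 and 0.236 Igkv reads per Igkc read in the KO libraries, against 0.32, 0.301 and 0.328 in the WT libraries. KO 2 and KO 3 had fewer V reads for each constant-region read than any WT library, and KO 1 lay within the WT range. The log2 difference was -0.22 (exact permutation p = 0.3, n = 3 each).

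Heavy chain V segments and Jchain shared the highest and the lowest library with the kappa segments. Summed heavy chain V segments (Ighv) had 2451, 293.2 and 148.5 CPM in KO 1, KO 2 and KO 3, against 351.8, 487.3 and 719.2 CPM in WT 1, WT 2 and WT 3. Jchain, which links secreted IgA into dimers, had 1896, 1128 and 255.4 CPM in the KO libraries, against 772.2, 957.1 and 1075 CPM in the WT libraries. KO 1 was the highest and KO 3 the lowest library for both. Other plasma cell markers did not all have that order. Mzb1, a chaperone of antibody-secreting cells, had 131.1, 64.8 and 35.28 CPM in the KO libraries, against 40.65, 19.55 and 25.71 CPM in the WT libraries, with WT 2 lowest. Of the 12 plasma cell markers, all were tested and none passed the adjusted threshold. Their summed level was 903.7 to 3592 CPM in KO libraries and 1766 to 1995 CPM in WT libraries. The 12 B cell markers summed to 159.9 to 286.6 CPM in KO libraries and 86.82 to 329.4 CPM in WT libraries. Rag1, which cuts the DNA when V and J are joined, and Igll1, a surrogate light chain gene of B cell precursors, had 0 reads in every library. Vpreb1, the other surrogate light chain gene on the list of recombination genes, had 3, 4 and 0 reads in KO 1, KO 2 and KO 3, against 14, 13 and 3 in WT 1, WT 2 and WT 3. Dntt and Rag2 had at most 4 reads in a library, and none of the 5 genes on that list passed the filter on low counts.

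Of the heavy chain classes, IgA shared its highest and lowest library with the kappa segments and IgG1 did not share the lowest. Igha, the IgA constant gene, had 13860, 3124 and 1014 CPM in KO 1, KO 2 and KO 3, against 3207, 4571 and 5296 CPM in WT 1, WT 2 and WT 3. Ighg1, the IgG1 constant gene, had 5109, 144.3 and 696.5 CPM in the KO libraries, against 2.318, 22.15 and 7.077 CPM in the WT libraries. For Ighg1, every KO library lay above every WT library, as for 15% of all genes tested, and its adjusted p in edgeR did not pass the threshold. Ighe, the IgE constant gene, also did not overlap, at 281.8, 1.659 and 202 CPM in the KO libraries, against 0, 0.06328 and 0.5307 CPM. Ighg3 went the other way on average, at 17.34, 4.576 and 11.81 CPM in the KO libraries, against 27.28, 12.72 and 24.24 CPM. The labels overlapped for Ighg3, Ighg2b, Ighg2c, Ighm and Ighd. Markers of other cells differed too. The 8 epithelial markers summed to 942.5, 7989 and 40.41 CPM in the KO libraries, against 13930, 16940 and 13970 CPM in the WT libraries, and the 6 neutrophil markers to 1201, 1220 and 6838 CPM, against 431.7, 10.12 and 53.43 CPM. None of these 14 genes passed the adjusted threshold, and the part of cell composition in the Igkv values was not tested.

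Kappa made up most light chain V reads in every library. Its share of Igkv plus Iglv (lambda V) reads was 89.98%, 84.96% and 91.13% in KO 1, KO 2 and KO 3, against 62.88%, 67.73% and 85.36% in WT 1, WT 2 and WT 3. KO 2 lay just under WT 3, so the labels overlapped. The means were 88.69 ± 3.28% for KO and 71.99 ± 11.8% for WT (SD, n = 3 each), a difference of 16.7 percentage points with exact permutation p = 0.2. The lambda reads behind these shares were 5563, 1742 and 326 in the KO libraries, against 3933, 3999 and 2125 in the WT libraries.

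The segment used most was the same in all 3 KO libraries, and other segments led in the WT libraries. Igkv3-2 held 7270 of 49953 Igkv reads in KO 1, or 14.6% (Wilson 95% interval 14.2 to 14.9%). KO 2 had 31.4% of its Igkv reads there (30.4 to 32.3%), and KO 3 had 18.3% (17.0 to 19.6%). The share of Igkv3-2 was 0.946% in WT 1, 6.59% in WT 2 and 0.468% in WT 3. It ranked 1st of 100 in each KO library and 28th, 3rd and 43rd in WT 1, WT 2 and WT 3. Every KO share lay above every WT share. Such intervals treat reads as independent and cover counting error within a library only. The reads carry no molecular identifiers, so copies of a molecule cannot be told from separate molecules.

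The first rank went to Igkv1-117 in WT 1, with 19.0% (18.1 to 20%), and in WT 2, with 12.2% (11.5 to 12.9%). Igkv8-30 ranked first in WT 3 with 17.2% (16.5 to 17.9%). Igkv1-117 held 4.25%, 2.16% and 11.1% in KO 1, KO 2 and KO 3, against 19.0%, 12.2% and 6.3% in WT 1, WT 2 and WT 3. Its share in KO 3 was above that in WT 3, so the labels overlapped. Igkv8-30 held 0.605%, 2.55% and 2.93% in the KO libraries, against 1.28%, 1.85% and 17.2% in the WT libraries, so WT 3 alone set it high. Annotated exon lengths of the segments ran from 338 to 501 bases. With reads divided by that length, the same segments ranked first in all 6 libraries, and Igkv3-2 held 14.2%, 30.8% and 18% in the KO libraries, against 0.931%, 6.45% and 0.458% in the WT libraries.

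**Figure D2:**
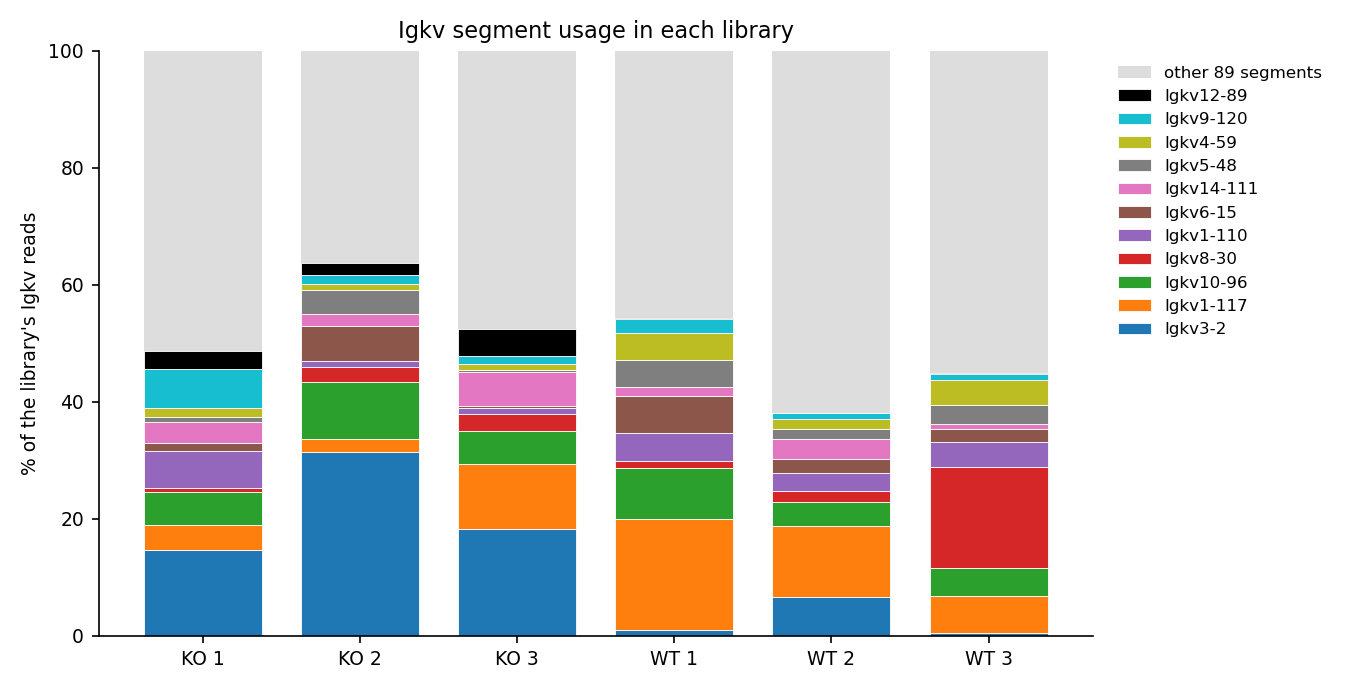
Percentage of each library's Igkv reads held by the 10 segments with the highest mean share, by Igkv12-89 and by the other 89 segments, stacked to 100 (KO libraries left, WT libraries right). Igkv3-2, at the base of each bar, takes 14.6% to 31.4% in KO libraries and 0.468% to 6.59% in WT libraries, and Igkv8-30 takes 17.2% in WT 3.

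Behind the leading segment, the order differed between libraries. In KO 1 the second and the third were Igkv9-120 (6.76%) and Igkv1-110 (6.42%), in KO 2 Igkv10-96 (9.8%) and Igkv4-68 (7.43%), and in KO 3 Igkv1-117 (11.1%) and Igkv14-111 (5.88%). In WT 1 they were Igkv10-96 (8.68%) and Igkv6-15 (6.37%), in WT 2 Igkv6-13 (7.04%) and Igkv3-2 itself, and in WT 3 Igkv17-121 (6.65%) and Igkv1-117 (6.3%). Some of these were high in 1 or 2 libraries. Igkv9-120 had 3378, 151 and 46 reads in KO 1, KO 2 and KO 3, against 154, 87 and 114 in WT 1, WT 2 and WT 3. Igkv4-68 had 154, 731 and 60 reads in the KO libraries, against 39, 43 and 248 in the WT libraries. Igkv17-121 had 612, 36 and 38 reads in the KO libraries, against 71, 59 and 824 in the WT libraries; it is 97.99% identical to Igkv17-127, so its reads could in part belong to that segment.

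The remaining segments among the 10 with the highest mean share had no common direction. Igkv10-96 held 5.78%, 9.8% and 5.53% in KO 1, KO 2 and KO 3, against 8.68%, 4.1% and 4.88% in WT 1, WT 2 and WT 3. Igkv6-15 held 1.36%, 5.96% and 0.388% in the KO libraries, against 6.37%, 2.47% and 2.14% in the WT libraries. Igkv5-48 held 0.887%, 4.2% and 0.299% in the KO libraries, against 4.64%, 1.7% and 3.33% in the WT libraries. For each of these segments the labels overlapped. Igkv4-59 held 1.42%, 1.02% and 1.05% in the KO libraries, against 4.58%, 1.67% and 4.35% in the WT libraries, with no overlap in share. In CPM the labels overlapped, at 34.98, 5.72 and 2.72 in the KO libraries, against 18.13, 8.859 and 31.79 in the WT libraries. Other members also had KO shares all below the WT shares, such as Igkv6-13 and Igkv8-27, or all above, such as Igkv3-2 and Igkv12-89. Igkv4-59 is 97.32% identical to Igkv4-70.

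The labels overlapped in how concentrated usage was. The inverse Simpson number, which gives how many equally used segments would produce the same concentration, was 21.1, 7.99 and 15.5 in KO 1, KO 2 and KO 3, against 15.9, 25.6 and 18.7 in WT 1, WT 2 and WT 3. KO 2 was the most concentrated library and WT 2 the most even. The means were 14.87 ± 6.6 for KO and 20.1 ± 4.98 for WT (SD, n = 3 each), with a difference of -5.23 and exact permutation p = 0.4. It took 9, 4 and 7 segments to reach 50% of the Igkv reads in the KO libraries, against 7, 11 and 8 in the WT libraries.

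The 10 most used segments of each library held 55.1%, 71.7% and 61.9% of its Igkv reads in KO 1, KO 2 and KO 3, against 60.8%, 49.2% and 56.0% in WT 1, WT 2 and WT 3. The difference of means was 7.58 percentage points (exact permutation p = 0.3). For the top segment alone the difference was 5.26 percentage points (p = 0.5, exact permutation). Both measures rest on Igkv3-2. When that segment was left out, which was decided with its values in view, the inverse Simpson number was 27.9, 17.5 and 21.4 in the KO libraries, against 15.7, 25.1 and 18.6 in the WT libraries, so the difference turned to 2.50. The top segment then held 7.91%, 14.3% and 13.6% in the KO libraries, against 19.2%, 13.1% and 17.3% in the WT libraries, a difference of -4.59 percentage points. With KO 2 left out instead, the difference in inverse Simpson number was -1.79 and that in top share 0.285 percentage points. Adjusted over the 7 exact tests of single values per library, the smallest p was 0.7.

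**Figure D3:**
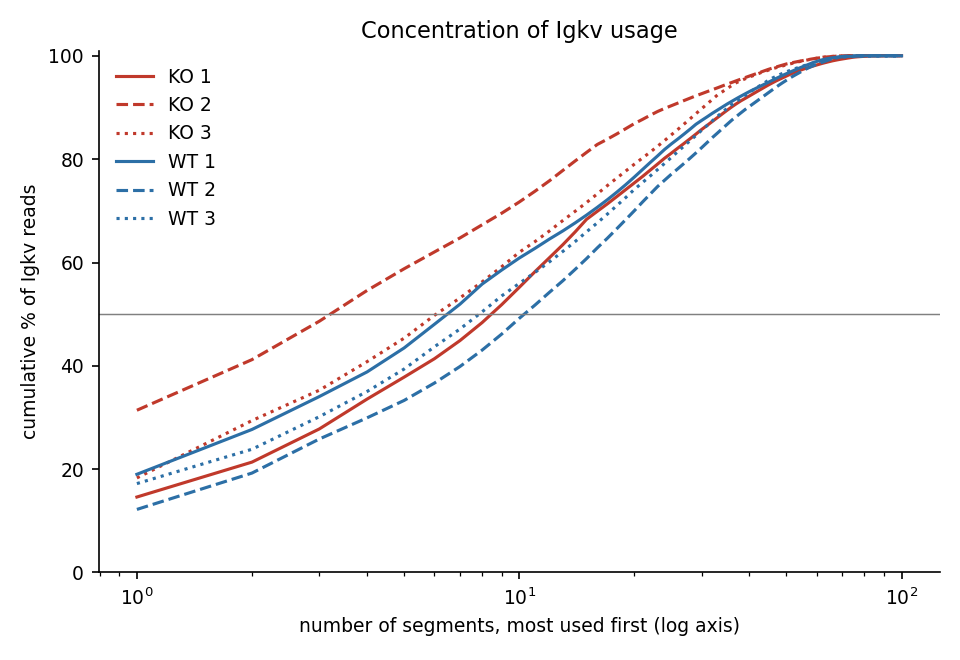
Cumulative percentage of a library's Igkv reads against the number of segments taken, most used first (log axis), for the KO libraries (red) and the WT libraries (blue); the grey line marks 50%. KO 2 reaches it with 4 segments and WT 2 with 11, and the other 4 libraries lie between with 7 to 9.

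At least 1 read was counted for 93, 73 and 71 segments in KO 1, KO 2 and KO 3, against 80, 77 and 83 in WT 1, WT 2 and WT 3 (difference of means -1, exact permutation p = 1). Detection depends on the number of Igkv reads. After thinning every library to the 3348 Igkv reads of KO 3, the numbers were 81, 69.1 and 71 in the KO libraries, against 74.8, 73.6 and 75.5 in the WT libraries, as means of 100 draws. In all, 56 segments were detected in every library and 32 had at least 10 reads in each. Igkv1-131 had 0 reads in all 6 libraries. A segment with 0 reads may still have held up to 0.00601%, 0.0305% and 0.0896% of Igkv reads in KO 1, KO 2 and KO 3, against 0.045%, 0.0357% and 0.0242% in WT 1, WT 2 and WT 3.

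Segment by segment, 69 of the 100 members passed the filter on low counts, and in the edgeR quasi-likelihood test none had an adjusted p under 0.05. None of the 16861 genes tested did (0%). At an unadjusted p under 0.05, 7 members were higher in KO, beside 11.8% of all genes tested, and 1 was lower, beside 12.3% of all genes. Every KO library lay above every WT library for 6 members, beside 15% of all genes, and below every one for 0 members, beside 17.3% of all genes. None of these edgeR and overlap shares of the members exceeded that of all genes. The higher members include Igkv12-89, Igkv4-57-1 and Igkv1-99, which passed the filter only through their high KO libraries. DESeq2 called 8 of 65 members with an adjusted p, all higher, beside 10.6% of its genes. limma-voom called 0 members and 0% of genes, with 8 members at unadjusted p under 0.05 beside 24.3% of genes, and limma-voom with quality weights called 3 members, all higher, beside 8.27% of genes. The median log2 ratio of the tested members was 0.82, with 49 positive and 20 negative, beside a median of 0.06 over all genes tested.

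That median rests on KO 1. The median member deviated from its WT mean, in log2 CPM, by 2.20, -0.97 and -1.73 in KO 1, KO 2 and KO 3, against -0.36, 0.21 and 0.33 in WT 1, WT 2 and WT 3. KO 1 lay above every WT library for 55 of the 69 tested members and below every one for 0. KO 3 lay below every WT library for 42 and above for 10, and KO 2 below for 31 and above for 14. Without KO 1 the median log2 ratio of the members was -1.46, with 17 positive of 69, and 21 members had an unadjusted p under 0.05 in the lower direction, beside 10% of genes, and 6 in the higher, beside 11% of genes. The members that were higher in all KO libraries were exceptions within KO 2 and KO 3, where most segments were low.

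**Figure D4:**
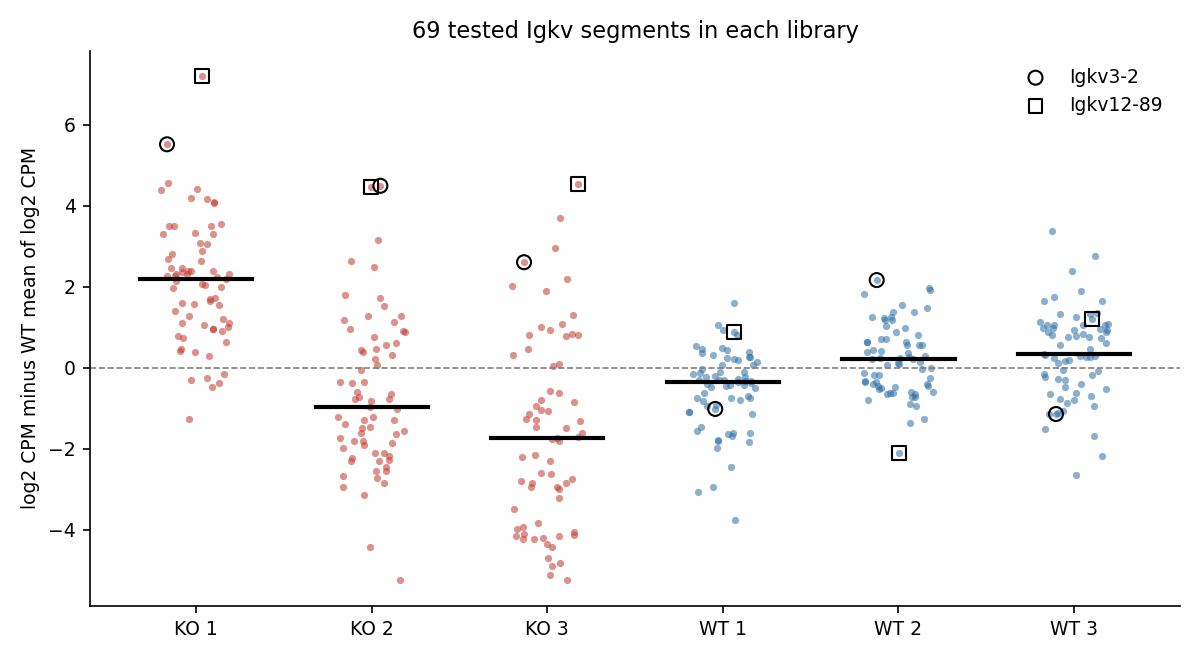
Deviation of each of the 69 tested Igkv segments from its WT mean, in log2 CPM, for each library (KO left, WT right); the black bar is the library's median. The medians are 2.20, -0.97 and -1.73 in the KO libraries, and Igkv3-2 (circle) and Igkv12-89 (square) lie far above the median in all 3.

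The 31 members that were not tested held few of the reads, 1.52%, 0.488% and 3.29% of Igkv reads in KO 1, KO 2 and KO 3, against 0.961%, 0.56% and 0.88% in WT 1, WT 2 and WT 3. Igkv7-33, named after its values were seen, was nevertheless called by DESeq2, with a log2 ratio of 5.37 and an adjusted p of 0.01277. It had 67, 27 and 3 reads in the KO libraries, against 0, 0 and 2 in the WT libraries, and KO 3 and WT 3 were both near 0. The most abundant of the untested members was Igkv14-126, with 380 reads, split as 349, 0 and 0 over KO 1, KO 2 and KO 3, against 1, 1 and 29 over WT 1, WT 2 and WT 3.

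The member with the smallest p was Igkv12-89, which lies 1887 kb from Igkj1. It had 1531, 196 and 152 reads in KO 1, KO 2 and KO 3, against 14, 0 and 18 in WT 1, WT 2 and WT 3. All 3 KO libraries were high and all 3 WT libraries near 0, including WT 2, where 0 of 8393 Igkv reads allow a share of up to 0.0357%. Its log2 ratio was 5.68 ± 1.29 (SE), with an adjusted p of 0.0983 in edgeR's quasi-likelihood test, and 3.671e-06 in DESeq2. With 0 reads in WT 2, it passed edgeR's filter only because its KO libraries were high. Its p-values and lack of overlap are therefore description only. Without KO 1 the log2 ratio was 4.17. Its share was 3.06%, 1.99% and 4.54% in the KO libraries, against 0.21%, 0% and 0.145% in the WT libraries.

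Igkv3-2 is 23.5 kb from Igkj1, the second nearest member after Igkv3-1. Its level was 359.2, 176.5 and 47.56 CPM in KO 1, KO 2 and KO 3, against 3.744, 34.99 and 3.42 CPM in WT 1, WT 2 and WT 3. The lowest KO library, KO 3, was above WT 2, the highest WT library. The log2 ratio was 3.79 ± 1.18 (SE), with an adjusted p of 0.132 in edgeR's quasi-likelihood test and 0.001486 in DESeq2. Without WT 2 the log2 ratio was 5.71, and without KO 1 it was 3.02. With it left out, the remaining Igkv level was 2109, 386.5 and 212.6 CPM in the KO libraries, against 392.1, 496.1 and 727.1 CPM in the WT libraries, so KO 2 and KO 3 were then below every WT library.

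Igkv13-85 had 227, 39 and 49 reads in KO 1, KO 2 and KO 3, against 15, 15 and 12 in WT 1, WT 2 and WT 3, a log2 ratio of 2.75 ± 0.69 (SE) with an adjusted p of 0.104 in edgeR's quasi-likelihood test. Igkv1-99 had 128, 20 and 21 reads in the KO libraries, against 4, 2 and 9 in the WT libraries, a log2 ratio of 3.31 ± 0.91 with an adjusted p of 0.112. Neither overlapped between the labels, at low counts in all but KO 1. The WT counts of Igkv1-99 were all under 10, the count set in the filter. It was thus tested only because its KO libraries were high, and its p and lack of overlap are description only. Igkv4-53 had 238, 207 and 57 reads in the KO libraries, against 26, 20 and 70 in the WT libraries. It had more reads in WT 3 than in KO 3, but not after scaling to CPM (4.43 in KO 3, 4.128 in WT 3), and its log2 ratio was 2.01 ± 0.63 with an adjusted p of 0.132. Igkv4-57-1 and Igkv1-135, named after their values were seen, complete the 7 higher members at an unadjusted p under 0.05. Igkv4-57-1 had 98, 27 and 148 reads in the KO libraries, against 5, 20 and 19 in the WT libraries, and Igkv1-135 had 492, 268 and 38, against 23, 34 and 75. With 0 reads of Igkv12-89 in WT 2 and 5 of Igkv4-57-1 in WT 1, the WT libraries alone would not have passed either through the filter. Their p and lack of overlap are thus description only, as for Igkv1-99, though all are counted among the 7 higher members. Without KO 2, edgeR called 4 members, Igkv12-89, Igkv13-85, Igkv4-57-1 and Igkv1-99, with adjusted p of 0.032 to 0.0475, beside 10.4% of genes. Igkv1-99 again passed the filter there only through its KO libraries. No other edgeR setting called a member.

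Of the 20 tested members with a negative log2 ratio, the 5 with the smallest p were each highest in a single WT library. Igkv4-63, the 1 lower member at an unadjusted p under 0.05, had 32, 10 and 20 reads in KO 1, KO 2 and KO 3, against 23, 55 and 214 in WT 1, WT 2 and WT 3, with a log2 ratio of -2.23 ± 0.87 (SE) and an adjusted p of 0.182 in edgeR's quasi-likelihood test. Igkv4-90 had 36, 10 and 0 reads in the KO libraries, against 1, 49 and 428 in the WT libraries, with a log2 ratio of -3.53. Igkv8-30 had 302, 251 and 98 reads in the KO libraries, against 85, 155 and 2131 in the WT libraries, with a log2 ratio of -1.93. WT 3 was far above the other 2 WT libraries for Igkv4-63, Igkv4-90 and Igkv8-30. Without WT 3 the log2 ratios were -0.98 for Igkv4-63, -0.98 for Igkv4-90 and 0.72 for Igkv8-30. Igkv6-13 had 231, 29 and 8 reads in the KO libraries, against 126, 591 and 123 in the WT libraries, and Igkv4-91 had 102, 72 and 5, against 97, 269 and 61. Here WT 2 was the high library. Their log2 ratios were -1.91 and -1.45, and without WT 2 they were -0.74 and -0.58.

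By family, the same contrast appeared as in the leading segment. Family 3, with 9 members, held 23.2%, 32.6% and 23.0% of Igkv reads in KO 1, KO 2 and KO 3, against 4.35%, 13% and 4.33% in WT 1, WT 2 and WT 3. Without Igkv3-2 the other 8 held 8.6%, 1.25% and 4.75% in the KO libraries, against 3.41%, 6.37% and 3.87% in the WT libraries, so without it the labels overlapped. The 9 members of family 3 are also the only ones with 15 CDR1 codons, so the family and the loop length cannot be told apart. Family 8, with 10 members, held 4.02%, 5.99% and 7.11% in the KO libraries, against 12%, 8.51% and 21.8% in the WT libraries. Family 6, with 9 members, held 9.72%, 8.1% and 4.6% in the KO libraries, against 12.9%, 18.6% and 12.3% in the WT libraries. Family 12, with 6 members, held 8.84%, 5.65% and 5.05% in the KO libraries, against 3.84%, 3.87% and 3.52% in the WT libraries. Of these shares, Igkv12-89 alone held 3.06%, 1.99% and 4.54% in the KO libraries, against 0.21%, 0% and 0.145% in the WT libraries. In KO 3 it held most of the family's share, so the contrast of family 12 is not separate from that segment. For families 8, 6 and 12 the labels did not overlap. They also did not overlap for families 7, 15, 16 and 19, each with 1 member. Some margins were small, such as 0.498% in KO 2 against 0.477% in WT 2 for family 16. The remaining families did not separate the labels. No background share was computed for families, so these separations are description only. Shares of a library add up to a whole, so a high share of any family lowers the rest. Family 4, the one with the most members (26), held 7.32%, 13.5% and 19.4% in the KO libraries, against 12%, 12% and 15.1% in the WT libraries, and family 1, with 10, held 12.2%, 6.74% and 13.9%, against 24.9%, 16.4% and 11.5%; both overlapped. Family shares were not tested.

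Most members have a shorter CDR1. The 40 members with 11 codons held 51.8%, 40.6% and 35.5% of Igkv reads in KO 1, KO 2 and KO 3, against 45.7%, 45.8% and 43.6% in WT 1, WT 2 and WT 3. The 15 with 10 codons held 5.93% to 10.8% in KO libraries and 7.55% to 13.6% in WT libraries. The 10 with 12 codons held 1.38% to 8.63% in KO libraries and 1.5% to 4.49% in WT libraries, and the 13 with 16 codons held 7.0% to 14.8% in KO libraries and 15.2% to 26% in WT libraries. The 11 with 17 codons held 4.16%, 6.27% and 7.2% in the KO libraries, against 12%, 8.51% and 21.8% in the WT libraries. The labels did not overlap for 15, 16 and 17 codons, and they overlapped for 10, 11 and 12. For 16 codons the margin was narrow, at 14.8% in KO 3 against 15.2% in WT 3. These shares were not tested. The members with 16 codons are those of families 1 and 2, each of which overlapped, and those with 17 are family 8 and Igkv7-33. Loop length and family cannot be told apart there either, and the contrast for 15 codons rests on Igkv3-2. For Igkv9-129 and Igkv4-54 no CDR1 could be bounded in this way.

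Along the locus, the 50 members nearest to Igkj1 held 50.2%, 62.0% and 52.0% of Igkv reads in KO 1, KO 2 and KO 3, against 46.6%, 52.5% and 54.1% in WT 1, WT 2 and WT 3. Members on the plus strand, which have the orientation of the J segments, held 59.5%, 47.2% and 52.0% in the KO libraries, against 42.5%, 49.8% and 36.7% in the WT libraries. Both splits overlapped between the labels.

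**Figure D5:**
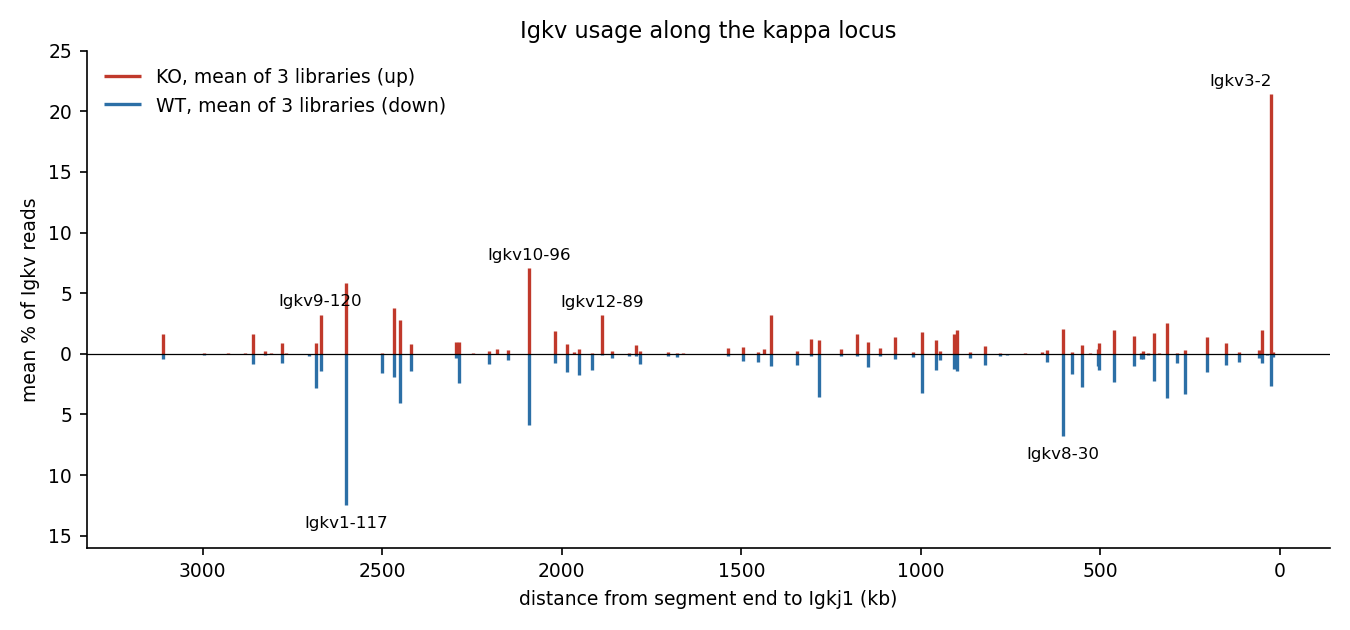
Mean percentage of Igkv reads per segment against its distance from Igkj1 in kb, with the mean of the 3 KO libraries drawn upward and that of the 3 WT libraries downward. Igkv3-2, 23.5 kb from Igkj1, is the tallest KO line, and Igkv1-117, at 2601 kb, is the tallest WT line.

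Few reads were counted on the J segments themselves. Igkj1 had 103, 50 and 12 reads in KO 1, KO 2 and KO 3, against 11, 6 and 5 in WT 1, WT 2 and WT 3. In unscaled reads the groups did not overlap, but only by 12 in KO 3 against 11 in WT 1. The other J segments overlapped between the labels. Igkj1 led the J segments in KO 2 alone of the KO libraries. Igkj2, Igkj3, Igkj4 and Igkj5 had 9, 12, 14 and 10 reads there. In KO 1, Igkj2 had 125 reads and Igkj5 115, and in KO 3 Igkj4 had 32, all above Igkj1. Which V and J segments were joined in 1 transcript cannot be read from counts per gene.

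Libraries of the same label were not alike in use. Bray-Curtis dissimilarity of segment shares, which is 0 for equal use and 1 for none in common, was 0.404 to 0.48 between KO libraries, 0.351 to 0.438 between WT libraries and 0.417 to 0.601 between the labels, over 15 pairs. The ranges overlapped, and pairs share libraries, so no test was made. Counts of segments differed between libraries by far more than counting error in every pair, with a chi-square statistic that was 36.2 to 233 times its degrees of freedom.

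Outside the immunoglobulin loci, the genes whose log2 CPM followed summed log2 Igkv CPM most closely over the 6 libraries, among 15679 candidates, included Arrb1 (Pearson r 0.994), Rab11fip3 (0.992), Sik2 (0.99) and Cacna1h (0.987). Without KO 1 the r values of these 4 were 0.958 to 0.974. Arrb1, which encodes beta-arrestin 1, had 159.6, 87.45 and 62.64 CPM in KO 1, KO 2 and KO 3, against 72.86, 77.77 and 90.93 CPM in WT 1, WT 2 and WT 3, a far narrower range than that of Igkv. These genes were taken as the highest of many values over 6 libraries and are given as a description.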

How the data were processed

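Poly-A RNA of distal colon was sequenced in 3 libraries per label. The deposited values are whole-number counts per gene, made by the authors, per the labels, after adaptor and quality trimming. The submitters' processing notes name, without roles, the builds GRCm38 and mm10 and the tools featureCounts 1.5.0-p3, HISAT2 2.0.5, DESeq2 and StringTie 1.3.3b. Strand setting, annotation release and the handling of multi-gene reads, not given in the sources used here, matter for alike V segments and for reads across a V-J junction.

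Counts of all genes were tested in R 4.3.3 with edgeR 4.0.16 (filterByExpr at a count of 10 and a total of 15, TMM scaling, the robust quasi-likelihood F test in its older form, Benjamini-Hochberg adjustment over 16861 genes, threshold 0.05). The newer form was also run before this one was kept, and it is reported as an alternative. CPM values use the TMM-scaled totals, log2 CPM a prior count of 2, and an SE is the log2 ratio over the root of F. Alternatives used DESeq2 1.42.0 and limma 3.58.1. Usage is a segment's reads over all reads of the 100 members in a library. Single values per library were compared by two-sided exact permutation tests with SciPy 1.17.1. Limits for a count of 0 are 3 reads of the total.

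Segments named are the 3 most used in each library, the 5 tested members with the smallest p in each direction and the 10 with the highest mean share. Others were chosen after their values were seen. The members and marker lists were chosen with earlier results of these data known. The list of genes most like Igkv in level is not given in full here.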

Additional observations from a re-analysis of the deposited data

How the results depend on the processing

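Calls, concentration and the sign of the median depended on single choices. No member passed the adjusted threshold under RLE or upper-quartile scaling, either low-count filter, the newer quasi-likelihood fit or limma-voom, but DESeq2 called 8, limma-voom with quality weights 3, and leaving out single libraries gave 0 to 4. Members at unadjusted p under 0.05 were 8 in edgeR's quasi-likelihood test. With no filter on low counts they numbered 13 (13.1% of members tested, beside 14.5% of all genes). DESeq2 gave 16 (19% of members, beside 15.8% of all genes). With a library left out they numbered 10 to 27. The 27 came without KO 1 and were 39.1% of members, beside 21% of genes. Genes reached their highest share, 31.3%, without KO 2, where 16 members (21.9%) were under 0.05. Members without overlap, 6 of those tested, numbered 3 with at least 10 reads required in every library (31.8% of all genes). With a library left out they numbered 9 to 32, and genes ran from 37.2% to 50.7%. The 32 came without KO 1 and were 46.4% of members, beside 45.1% of genes. Upper-quartile scaling moved the median of all genes to 0.21 on the log2 scale, against 0.06.

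Same-numbered libraries showed no sign of pairing: their deviations correlated at -0.201, 0.0866 and -0.0753, and those of other pairs at -0.171 to 0.34. With 3 libraries per label, this check cannot exclude a pairing. With the replicate block, the median log2 ratio of members turned to -0.35 and no member was called. With a library left out, that median ran from -1.46 to 1.35, the log2 difference of total Igkv CPM from -0.48 to 1.14, and the difference in detected segments from -8 to 3, turning to 2 without KO 2, to 3 without KO 3 and to 0.5 without WT 3. The log2 ratio of Igkv8-30 ran from -2.49 to 0.72. Those of the other 9 members with a printed log2 ratio kept their sign in the 12 or 13 edgeR alternatives fitted for each. With Igkv3-2 left out, chosen after seeing the data, the inverse Simpson difference was 2.50 and the top-share difference -4.59. With a library left out they were -8.36 to -1.79 and 0.285 to 8.69, and the top 10 difference was 3.2 to 11.5. The kappa share and the ratio of Igkv to Igkc kept their direction in all alternatives. The cause of these changes was not tested. KO 3, with 3348 Igkv reads, limits what can be said of rare segments.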
